A study of Arabidopsis thaliana with 9 samples.

Results

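The nodulin MtN21 genes of Arabidopsis thaliana were read as every gene whose deposited description contains the words nodulin MtN21, in either case, and 50 of the 33602 genes in the table met that rule. Of the 50, 42 carry a UMAMIT name in the RefSeq annotation of assembly TAIR10.1. Another 3 are named there as UMAMIT pseudogenes, and 5 carry no UMAMIT name. Among those 5, RefSeq notes AT1G06890, AT1G48230, AT3G02690 and AT2G05755 as nucleotide/sugar transporter family proteins. Of those named as pseudogenes, RefSeq types UMAMIT39-psi as a transcribed pseudogene, but UMAMIT16-psi and UMAMIT43-psi as protein-coding genes. The rule uses no measured value. The series compared siliques, the seed pods with the seeds inside, collected at 12 days past anthesis from 3 kinds of plant with 3 libraries each, which the labels call biological replicates. The first kind carried Napin:SCL15, in which the napin promoter, taken from a storage protein gene active in seeds, drives extra SCL15 there. The second kind was an scl15 knockout, whose allele the labels do not give, and the third was wild type Columbia. All plants grew in a greenhouse set to 16 to 22 degrees Celsius, the number of transgenic lines and of pooled plants is not given in the sources used here, and p-values measure only the spread between these samples.

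UMAMIT proteins (Usually Multiple Acids Move In and Out Transporters) are membrane proteins of plants, and the older name nodulin MtN21 comes from a gene first seen in nodules of the legume Medicago truncatula. Several members carry amino acids across the plasma membrane in either direction, and so let amino acids leave a cell. In a silique, amino acids arrive through the phloem of the mother plant, and have to leave the seed coat before the embryo, which has no direct link to the maternal veins, can take them up. SIAR1 (Siliques Are Red 1, also UMAMIT18) is noted by RefSeq as a bidirectional amino acid transporter of siliques. UMAMIT11, UMAMIT14, UMAMIT28 and UMAMIT29 are known as amino acid exporters used in seed filling, and UMAMIT24 and UMAMIT25 are known to act in amino acid transfer within the seed.

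The levels are deposited as TPM, a length-corrected share of the transcripts in each library that is scaled to 1000000 in all. Each library held 19679 to 21855 genes above 0 TPM, and TPM keep no sequencing depth, so the depth is unknown. SCL15 (AT4G36710), a GRAS family transcription regulator, averaged 550.4 ± 21.8 TPM in overexpression siliques, 5.84 ± 0.886 TPM in knockout siliques and 13.8 ± 2.78 TPM in wild type siliques (SD, n = 3 each). Transcripts of seed storage, oil body and late embryogenesis abundant (LEA) proteins made up 47.7% ± 2.62 of the TPM in overexpression siliques, 35.9% ± 0.313 in knockout siliques and 35.4% ± 1.21 in wild type siliques (SD, n = 3 each). Because TPM sum to a fixed total, a larger share for these transcripts lowers the TPM of all other genes, and values were therefore also compared after median-ratio scaling, which sets the typical gene equal across libraries.

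Promoter sequences are shown for the 4 members with the largest changes in any comparison, UMAMIT26, UMAMIT10, UMAMIT45 and SIAR1, so that their upstream regions can be set side by side. Each runs 5′ to 3′ over the 250 bases before the annotated gene start in RefSeq TAIR10.1, at chr1:16917054-16917303 (reverse strand) for SIAR1, chr1:3856692-3856941 (forward) for UMAMIT26, chr3:20974626-20974875 (reverse) for UMAMIT10 and chr3:10455779-10456028 (forward) for UMAMIT45. Capitals mark matches to CATGCA, the RY element bound by seed B3 factors, or to ACGTG, the core of the ABRE bound by bZIP factors, on either strand.
SIAR1: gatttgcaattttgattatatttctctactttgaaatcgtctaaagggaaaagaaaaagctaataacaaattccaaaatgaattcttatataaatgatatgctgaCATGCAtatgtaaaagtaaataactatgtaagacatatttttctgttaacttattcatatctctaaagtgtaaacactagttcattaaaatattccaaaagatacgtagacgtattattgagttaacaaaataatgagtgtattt
UMAMIT26: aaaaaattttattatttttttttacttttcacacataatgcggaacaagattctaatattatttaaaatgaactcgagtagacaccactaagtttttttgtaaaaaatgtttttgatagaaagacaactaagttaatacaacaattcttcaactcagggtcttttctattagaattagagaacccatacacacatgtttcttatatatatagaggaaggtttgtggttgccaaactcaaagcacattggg
UMAMIT10: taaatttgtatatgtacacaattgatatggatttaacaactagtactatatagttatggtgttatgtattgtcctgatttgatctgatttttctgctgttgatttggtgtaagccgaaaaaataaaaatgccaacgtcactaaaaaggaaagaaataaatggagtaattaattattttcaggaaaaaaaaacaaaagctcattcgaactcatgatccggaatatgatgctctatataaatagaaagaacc
UMAMIT45: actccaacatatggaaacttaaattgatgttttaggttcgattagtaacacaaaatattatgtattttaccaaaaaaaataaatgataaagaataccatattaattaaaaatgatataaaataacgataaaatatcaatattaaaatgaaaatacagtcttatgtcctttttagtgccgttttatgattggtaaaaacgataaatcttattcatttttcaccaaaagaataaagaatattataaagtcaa
The SIAR1 window held 1 RY match, which began 145 bases before the gene start, and the windows of UMAMIT26, UMAMIT10 and UMAMIT45 held no match to either motif. An RY match was present in 8.43% of the windows of all 27443 protein-coding genes and in 2 of the 35 members that were tested. An ABRE core match was present in 22.9% of all windows and in 4 of the 35. These matches are descriptions of letters.

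The family was unevenly expressed in siliques. In all 9 libraries 7 members were listed at 0, and another 8 were above 0 somewhere but averaged under 1 TPM. The other 35 had a mean of at least 1 TPM over the 9 libraries and were tested, and 13 of them averaged at least 10 TPM. The 8 members with the highest means held 73.4% of the family's summed TPM. Summed over the 50 members, the family reached 593 ± 30.0 TPM in overexpression siliques, 668 ± 45.1 TPM in knockout siliques and 743 ± 49.9 TPM in wild type siliques (SD, n = 3 each).

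UMAMIT12 and SIAR1 led the family and together held 33.3% of its summed TPM. UMAMIT12 stood at 76.7, 80.4 and 95.3 TPM in overexpression siliques, 159.8, 164 and 174 TPM in knockout siliques, and 110.1, 124 and 130.3 TPM in wild type siliques. SIAR1 stood at 104, 112 and 104 TPM in overexpression siliques, 55.4, 76.6 and 44.8 TPM in knockout siliques, and 135, 149 and 109 TPM in wild type siliques. The order of these leading genes differed between groups: SIAR1 was above UMAMIT12 in all 3 overexpression libraries, UMAMIT12 was above SIAR1 in all 3 knockout libraries, and in wild type SIAR1 was above in replicates 1 and 2 but not in replicate 3. The ratio of SIAR1 to UMAMIT12 within a library does not depend on scaling, and it was 1.35, 1.39 and 1.09 in overexpression siliques, 0.347, 0.466 and 0.257 in knockout siliques, and 1.23, 1.20 and 0.839 in wild type siliques. The knockout ratios lay below all others, and the overexpression and wild type ratios overlapped. The pair was chosen after its values were seen, so its ratio was not tested.

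The next members by level were UMAMIT41, UMAMIT29, UMAMIT20, UMAMIT25, UMAMIT8 and UMAMIT40. UMAMIT29, an exporter of seed filling, averaged 42.5 ± 4.41 TPM in overexpression siliques, 57.8 ± 7.89 TPM in knockout siliques and 49.5 ± 4.59 TPM in wild type siliques (SD, n = 3 each). UMAMIT25, an amino acid transporter of the seed, averaged 52.9 ± 1.58 TPM in overexpression siliques, 47.8 ± 2.31 TPM in knockout siliques and 48.1 ± 4.19 TPM in wild type siliques. In wild type the difference between the means of UMAMIT29 and UMAMIT25 was smaller than the SD of either. UMAMIT8 averaged 42.1 ± 4.46 TPM in overexpression siliques, 39.4 ± 2.54 TPM in knockout siliques and 38.3 ± 3.82 TPM in wild type siliques.

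**Figure D1:**
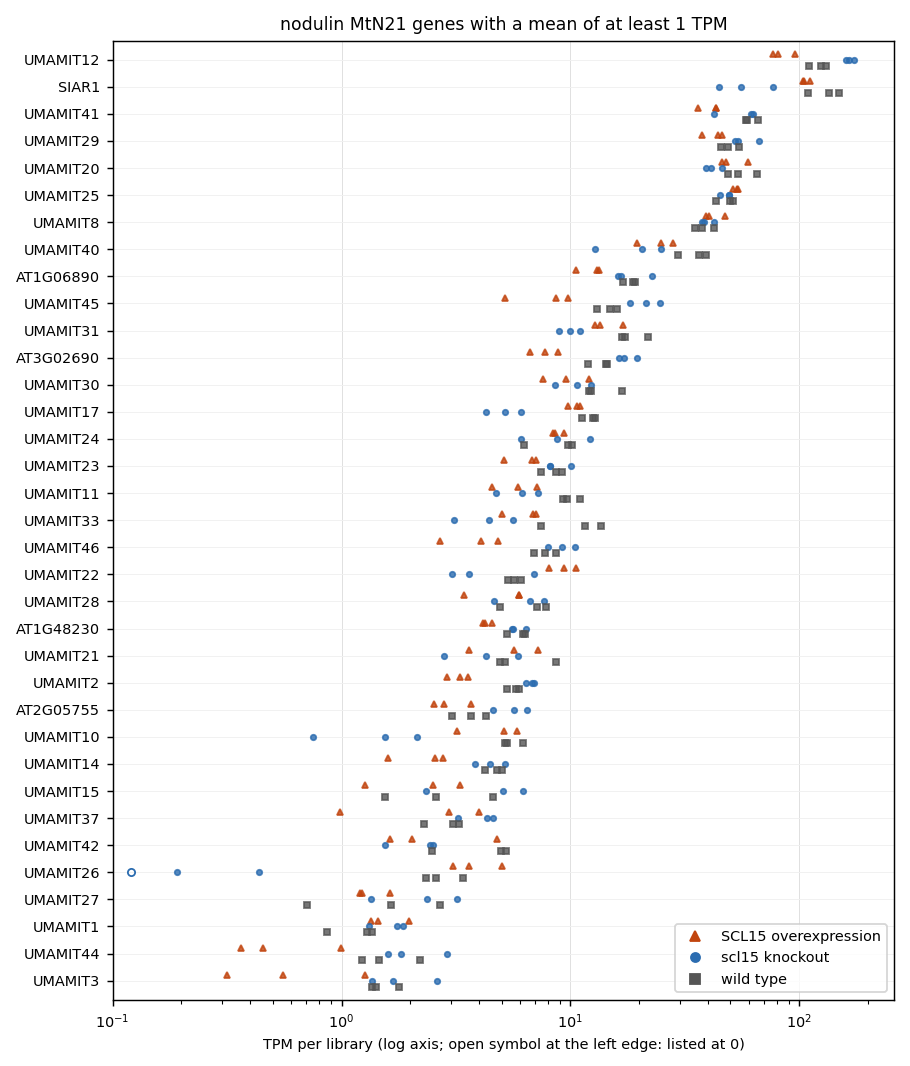
TPM of the 35 members with a mean of at least 1 TPM, ordered by their mean, on a log axis, with 1 symbol per library (triangles, SCL15 overexpression; circles, scl15 knockout; squares, wild type) and an open symbol at the left edge for a library listed at 0. SIAR1, UMAMIT17, UMAMIT10 and UMAMIT26, among others, show knockout circles to the left of all other symbols. UMAMIT12, UMAMIT45, AT3G02690 and UMAMIT2 show the 3 groups apart, with knockout highest.

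The first comparison asked how levels in scl15 knockout siliques differed from wild type. In limma's moderated test on log2(TPM + 1), with Benjamini-Hochberg adjustment over all 16555 genes tested and a threshold of 0.05, 8 of the 35 tested members fell in the knockout and 1 rose. That is 25.7% of the members, against 15.5% of all genes called in this comparison. In the lower direction alone 6.31% of all genes were called, and in the higher direction 9.18%. Those that fell were UMAMIT26, UMAMIT10, SIAR1, UMAMIT33, UMAMIT17, UMAMIT40, UMAMIT31 and UMAMIT11, and the one that rose was UMAMIT12. The median log2 fold change of the 35 members was -0.01, against 0.10 over all genes tested, and after median-ratio scaling these medians were -0.11 and 0.01. After that scaling 9 members were called, all lower, against 13.7% of all genes called, 7.81% lower and 5.92% higher. Of these 9, 8 were also called on the deposited values. The knockout and wild type libraries did not overlap for 14 of the 35 members on the deposited values, against 33.0% of all genes. In whole siliques, fewer cells of a type and less RNA per cell cannot be told apart.

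SIAR1, the silique amino acid transporter, showed the largest fall in TPM. Its 55.4, 76.6 and 44.8 TPM in knockout siliques lay below its 135, 149 and 109 TPM in wild type siliques, and the groups did not overlap. The log2 fold change, here always a difference in mean log2(TPM + 1), which understates changes of low genes, was -1.16 (SE 0.17, adjusted p = 3.5e-04). Knockout replicate 2 was the highest of its group and knockout replicate 3 the lowest, and the same was true of several other members that fell. Of the 8 members that fell, all 8 had their highest knockout level in replicate 2, and 6 had their lowest in replicate 3. In wild type, 7 of the 8 were highest in replicate 2 and 6 were lowest in replicate 3.

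UMAMIT26 (AT1G11460, chr1:3856942-3859465) showed the largest fold change of the family in this comparison. It stood at 0.191, 0.434 and 0 TPM in knockout siliques, against 2.58, 3.39 and 2.34 TPM in wild type siliques, with 1 knockout library listed at 0, and fell by 1.65 on the log2 scale (SE 0.22, adjusted p = 1.6e-04). The groups did not overlap, although the gene is weakly expressed throughout. UMAMIT26 shares 9.06% of its 50-base stretches with its neighbour UMAMIT27, so reads could be split between them. UMAMIT27 stood at 2.36, 1.35 and 3.19 TPM in knockout siliques, against 1.64, 0.710 and 2.68 TPM in wild type siliques, with overlapping groups and a log2 difference of 0.33 (SE 0.28, adjusted p = 0.492).

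UMAMIT10 (AT3G56620, chr3:20972488-20974625) stood at 1.54, 2.13 and 0.748 TPM in knockout siliques, against 5.19, 5.29 and 6.19 TPM in wild type siliques, and its log2 fold change was -1.44 (SE 0.24, adjusted p = 8.1e-04). UMAMIT17 stood at 4.29, 6.09 and 5.19 TPM in knockout siliques, against 11.3, 12.9 and 12.6 TPM in wild type siliques, and its log2 fold change was -1.10 (SE 0.15, adjusted p = 1.7e-04). Every knockout library was below every wild type library for both genes. UMAMIT33 stood at 4.40, 5.61 and 3.11 TPM in knockout siliques, against 11.5, 13.6 and 7.43 TPM in wild type siliques, with a log2 difference of -1.13 (SE 0.23, adjusted p = 0.0036). It overlaps AT4G28050 on the opposite strand and shares 6.66% of its 50-base stretches with it, and the use of strand in counting is not given in the sources used here, so the value of UMAMIT33 is uncertain. UMAMIT31 stood at 9.97, 11.0 and 8.93 TPM in knockout siliques, against 17.3, 21.8 and 16.7 TPM in wild type siliques, with a log2 difference of -0.84 (SE 0.15, adjusted p = 0.0019).

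The calls of SIAR1, UMAMIT26, UMAMIT10, UMAMIT17, UMAMIT33 and UMAMIT31 held in every alternative setting in which they could be tested. The falls of UMAMIT40 and UMAMIT11 were less secure. UMAMIT40 stood at 20.6, 24.9 and 12.8 TPM in knockout siliques, against 36.3, 38.9 and 29.6 TPM in wild type siliques, and its log2 fold change was -0.85 (SE 0.21, adjusted p = 0.012). This call was lost without wild type replicate 1 or without wild type replicate 2. UMAMIT11, an exporter of seed filling, stood at 4.75, 7.18 and 6.16 TPM in knockout siliques, against 9.62, 11.0 and 9.30 TPM in wild type siliques, and its log2 fold change was -0.65 (SE 0.18, adjusted p = 0.025). This call was lost without knockout replicate 1 or 3, without wild type replicate 1 or 2, and with no filter on low values. Without wild type replicate 1 the count of called members was 6, against 9 with all libraries.

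UMAMIT12, the most abundant member, was the only one called higher in the knockout. Its 159.8, 164 and 174 TPM in knockout siliques lay above its 110.1, 124 and 130.3 TPM in wild type siliques without overlap, and the log2 fold change was 0.45 (SE 0.12, adjusted p = 0.018). After median-ratio scaling the difference was 0.35 (adjusted p = 0.065) and no longer called, and the call was also lost with no abundance trend, without knockout replicate 3 or without wild type replicate 1. UMAMIT20 stood near the threshold in the other direction, at 41.2, 45.8 and 39.1 TPM in knockout siliques, against 53.7, 65.2 and 48.8 TPM in wild type siliques. Its log2 fold change was -0.40 (SE 0.14, adjusted p = 0.071) as deposited and -0.50 (adjusted p = 0.024) after median-ratio scaling.

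**Figure D2:**
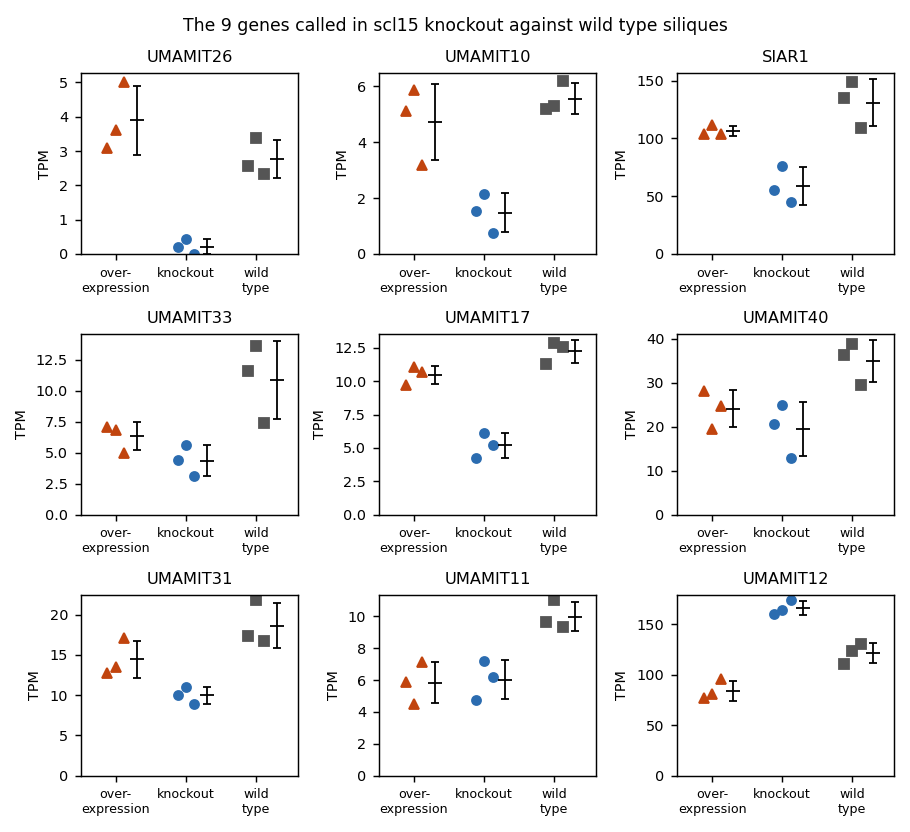
TPM per library of the 9 members called in the knockout against wild type, in panels with separate linear axes that start at 0. Symbols are single libraries of the overexpression, knockout and wild type groups, and the bars beside them are the mean ± SD (n = 3). Knockout libraries lie below all wild type libraries in 8 panels and above them in the panel of UMAMIT12.

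The 8 members that fell summed to 106 ± 26.4 TPM in knockout siliques and 226 ± 31.2 TPM in wild type siliques (SD, n = 3 each). The other 42 members summed to 563 ± 19.6 TPM in knockout siliques and 517 ± 26.0 TPM in wild type siliques. The share of the family held by the 8, which does not depend on scaling, was 15.1%, 18.8% and 13.1% in knockout libraries and 31.7%, 32.0% and 27.4% in wild type libraries. In overexpression libraries it was 30.3%, 30.8% and 28.2%, all within the range of the wild type libraries. The 8 were chosen by this contrast, so the share is a description.

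Tissue markers were also read in this comparison, and they did not all move in the same direction. All 4 phloem markers fell in the knockout: the sucrose carrier SUC2 by 0.52, the phloem regulator APL by 0.61, the proton pump AHA3 by 0.59 and the sulfate transporter SULTR2;1 by 0.84 on the log2 scale, with adjusted p-values of 0.015, 0.044, 0.0097 and 0.0020. Their summed level was 264 to 319 TPM in knockout libraries and 408 to 501 TPM in wild type libraries, and none of the 4 was at 0. Of 6 silique wall and valve margin markers, SHP1 and ADPG2 fell and IND rose in the knockout, and their sums, 466 to 717 TPM in knockout libraries and 672 to 1057 TPM in wild type libraries, overlapped. Within the knockout the phloem sum was 300.5, 319 and 264 TPM in replicates 1, 2 and 3, and within wild type it was 501, 481.5 and 408 TPM in replicates 1, 2 and 3. It was thus highest in knockout replicate 2 but in wild type replicate 1, and lowest in replicate 3 of both groups. Of the 5 tested seed coat markers TT8 and GL2 rose, and the sums of all 8 were 120.0 to 128 TPM in knockout libraries and 94.0 to 108 TPM in wild type libraries. IND and TT8 were not called after median-ratio scaling, while ADPG1 was then called lower (-0.66, adjusted p = 0.045). The deposited calls of TT8 and APL held in 5 and 11 of 20 alternatives. None of the 6 xylem markers passed the test (sums of 121 to 151 TPM in knockout libraries and 127 to 139.6 TPM in wild type libraries). The 6 embryo storage markers did not pass it either (242084 to 250931 TPM in knockout libraries and 247545 to 261963 TPM in wild type libraries). Only 2 of the 6 endosperm markers were tested, neither passed, MINI3 was at 0, and the sums were 3016 to 3081 TPM in knockout libraries and 3755 to 6249 TPM in wild type libraries. The part of these tissues in the falls of the nodulin MtN21 genes was not tested.

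Other genes of amino acid transport, from a list of 23 genes of which 21 were tested, moved in both directions in the knockout. AAP4 and AAP5, amino acid permeases that take up amino acids, fell, and LHT1 and CAT6, also uptake carriers, rose. AAP4 stood at 28.7, 36.3 and 24.1 TPM in knockout siliques, against 83.3, 98.5 and 71.0 TPM in wild type siliques, a log2 difference of -1.48 (SE 0.15, adjusted p = 2.2e-05). LHT1 stood at 61.2, 70.4 and 43.0 TPM in knockout siliques, against 33.8, 38.8 and 25.2 TPM in wild type siliques, a log2 difference of 0.81 (SE 0.20, adjusted p = 0.013). The log2 fold changes of AAP5 and CAT6 were -0.73 (SE 0.15, adjusted p = 0.0037) and 0.66 (SE 0.16, adjusted p = 0.011). The calls of AAP4, AAP5 and CAT6 held in all 20 alternatives, and that of LHT1 was lost without knockout replicate 1 or without wild type replicate 3. After median-ratio scaling CAT4 and BAT1 were also called lower, at -0.46 (adjusted p = 0.030) and -0.53 (adjusted p = 0.0415). Of the 17 SWEET genes, sugar transporters that carry the similar name nodulin MtN3, 11 were tested. SWEET4 fell (-1.05, adjusted p = 2.1e-04) while SWEET13 rose (0.90, adjusted p = 1.4e-04), and SWEET1 was also called lower after median-ratio scaling (-0.55, adjusted p = 0.030).

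The second comparison set SCL15 overexpression against wild type. It shares the 3 wild type libraries with the first. On the deposited TPM 11 of the 35 members fell and none rose, which is 31.4%, against 25.1% of all genes called in this comparison. In the lower direction 23.4% of all genes were called and in the higher direction 1.68%. Same-numbered overexpression and wild type libraries deviated together, so the replicate number was also fitted as a block. That fit covered all 9 libraries, and so also blocked the knockout libraries, which were not taken as pairs. Under it 14 members were called: the same 11, UMAMIT40 and UMAMIT30 lower (adjusted p = 0.038 and 0.024) and UMAMIT22 higher (adjusted p = 0.018). Of all genes 31.9% were then called, 29.8% lower and 2.13% higher. The median log2 fold change was -0.35 over the members and -0.28 over all genes tested. After median-ratio scaling, none of the 11 falls was called and 3 other members were called higher, against 6.86% of all genes called under that scaling, 3.27% higher and 3.58% lower. The medians were then -0.05 over the members and -0.0030 over all genes. The groups did not overlap for 18 of the 35 members on the deposited scale, against 43.0% of all genes.

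The 11 members that were lower on the deposited scale alone were UMAMIT46, UMAMIT45, UMAMIT14, AT3G02690, UMAMIT44, UMAMIT11, UMAMIT33, UMAMIT2, UMAMIT41, AT1G06890 and UMAMIT12. UMAMIT45 stood at 8.68, 5.20 and 9.80 TPM in overexpression siliques, against 14.9, 16.0 and 13.1 TPM in wild type siliques, a log2 difference of -0.85 (SE 0.19, adjusted p = 0.0078) as deposited and -0.55 (adjusted p = 0.084) after median-ratio scaling. UMAMIT46 stood at 4.82, 4.07 and 2.69 TPM in overexpression siliques, against 8.69, 7.73 and 6.96 TPM in wild type siliques, a log2 difference of -0.88 (SE 0.18, adjusted p = 0.0053) as deposited and -0.60 (adjusted p = 0.083) after scaling. In both genes every overexpression library was below every wild type library. UMAMIT14, an exporter of seed filling, stood at 2.57, 2.77 and 1.59 TPM in overexpression siliques, against 4.77, 4.25 and 5.02 TPM in wild type siliques, a log2 difference of -0.80 (SE 0.19, adjusted p = 0.0088) as deposited and -0.55 (adjusted p = 0.107) after scaling. For UMAMIT12 the log2 fold change was -0.53 (SE 0.12, adjusted p = 0.0069) as deposited and -0.20 (adjusted p = 0.355) after scaling.

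The other 7 had deposited log2 fold changes between -0.74 (AT3G02690) and -0.54 (AT1G06890). After median-ratio scaling their differences were -0.44 (adjusted p = 0.084) for AT3G02690, -0.58 (adjusted p = 0.184) for UMAMIT44, -0.41 (adjusted p = 0.203) for UMAMIT11 and -0.38 (adjusted p = 0.376) for UMAMIT33. They were -0.39 (adjusted p = 0.139) for UMAMIT2, -0.25 (adjusted p = 0.334) for UMAMIT41 and -0.23 (adjusted p = 0.358) for AT1G06890. The direction stayed below 0 for all 11 members, and none passed the test after scaling. On the deposited scale the count was 6 without overexpression replicate 2 and 6 without wild type replicate 2. UMAMIT33 and UMAMIT44 were the least secure of the 11, with adjusted p-values of 0.044 and 0.042, and they kept the call in 7 of 20 and 7 of 19 alternatives. The calls of UMAMIT41, UMAMIT11 and AT1G06890 were lost without overexpression replicate 2 or without wild type replicate 2, and that of AT1G06890 also without wild type replicate 1.

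The 3 members called higher after median-ratio scaling were UMAMIT22, UMAMIT25 and UMAMIT8. UMAMIT22 stood at 9.42, 10.6 and 8.07 TPM in overexpression siliques, against 5.66, 6.07 and 5.31 TPM in wild type siliques, and the groups did not overlap. Its log2 fold change was 0.63 (SE 0.22, adjusted p = 0.051) as deposited and 0.92 (adjusted p = 0.026) after scaling, and it was called in 11 of 20 alternatives, several of them on the deposited scale. UMAMIT25 was 0.14 (SE 0.11, adjusted p = 0.362) as deposited and 0.46 (adjusted p = 0.030) after scaling, and UMAMIT8 was 0.13 (SE 0.12, adjusted p = 0.441) as deposited and 0.46 (adjusted p = 0.034) after scaling. All 3 were above 0 on both scales. SIAR1, which fell in the knockout, stood at 104, 112 and 104 TPM in overexpression siliques and 135, 149 and 109 TPM in wild type siliques, with overlap, and its log2 fold change was -0.29 (SE 0.17, adjusted p = 0.225) as deposited and 0.04 (adjusted p = 0.921) after scaling.

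**Figure D3:**
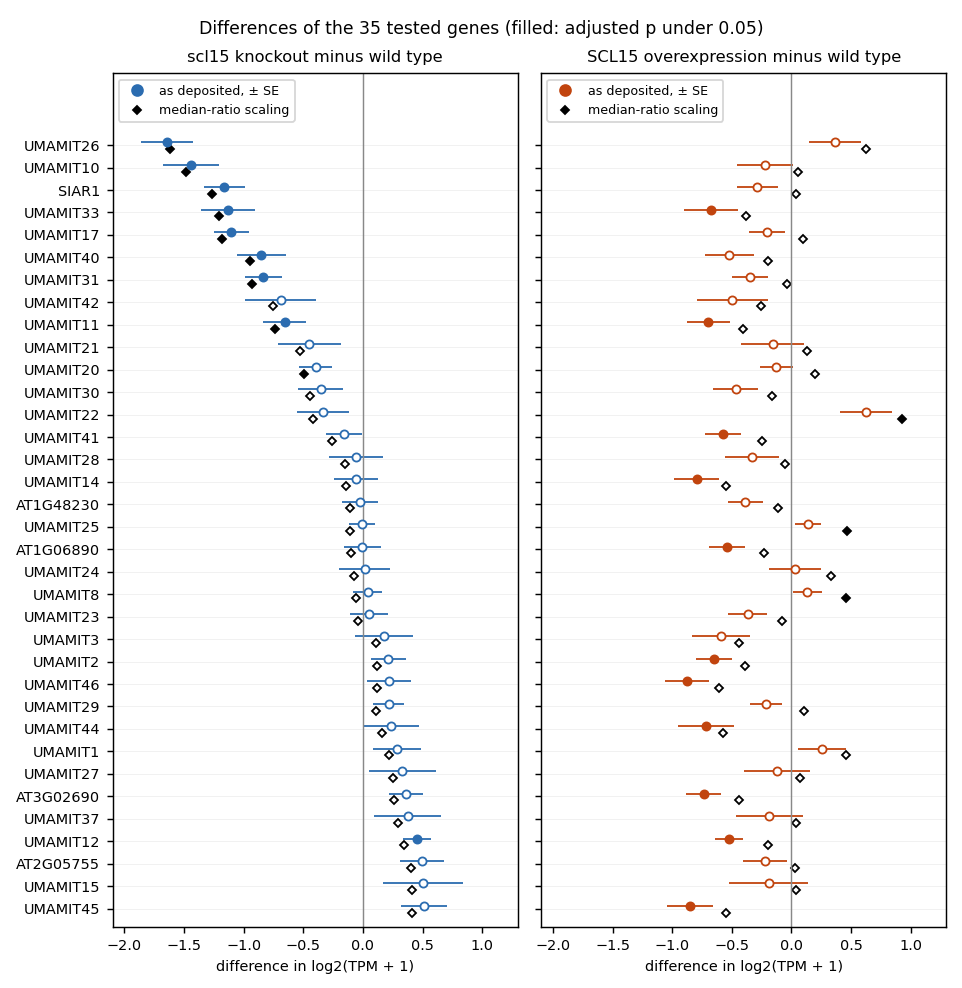
Log2 fold changes of the 35 tested members in scl15 knockout (left) and SCL15 overexpression (right) against wild type, ordered by the knockout value. Circles with bars are the values as deposited ± SE and diamonds are values after median-ratio scaling, with filled symbols for an adjusted p under 0.05. Scaling moved the knockout values little, and in the overexpression panel it left none of the 11 filled circles with a filled diamond.

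Of the 21 tested genes of amino acid transport AAP3 rose and 4 fell on the deposited scale, of which GDU1, CAT6 and AAP6 had the largest changes. After median-ratio scaling, AAP3 was called, at 0.87 (adjusted p = 0.0085), and GDU1, CAT6 and AAP6 were not. The deposited call of AAP3 held in 10 of 20 alternatives. Of the 11 tested SWEET genes 6 fell, and SWEET17, SWEET13 and SWEET1 were still called after scaling, at -0.95 (adjusted p = 0.0012), -0.78 (adjusted p = 0.0015) and -0.60 (adjusted p = 0.033). The 4 phloem markers did not pass the test in overexpression against wild type, and their sums, 373 to 448 TPM in overexpression libraries and 408 to 501 TPM in wild type libraries, overlapped. On the deposited scale 4 of 6 xylem markers fell (sums of 68.5 to 82.9 TPM in overexpression libraries and 127 to 139.6 TPM in wild type libraries), and of these LAC4 was still called after median-ratio scaling. So did 3 of 6 silique wall markers (493 to 594 TPM in overexpression libraries and 672 to 1057 TPM in wild type libraries) and 2 of 5 tested seed coat markers, none of them called after scaling. The embryo storage marker CRA1 rose, and no tested endosperm marker passed the test. With the replicate block the silique wall markers SHP2 and ADPG1 also fell (adjusted p = 0.039 and 0.0056) and the embryo storage marker CRC rose (adjusted p = 0.038). The part of these tissues, and of the larger share of storage transcripts, in the values of single members was not tested.

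The third comparison set SCL15 overexpression against the knockout, and it shares libraries with both others. On the deposited scale 19 of the 35 members were called, 6 higher and 13 lower, which is 54.3%, against 49.2% of all genes, 6.16% higher and 43.1% lower. After median-ratio scaling 17 were called, 11 higher and 6 lower, against 27.8% of all genes, 13.4% higher and 14.4% lower, and 12 members were called on both scales. The 5 called after scaling alone were all higher: UMAMIT20 by 0.70 (adjusted p = 0.0014), UMAMIT25 by 0.57 (adjusted p = 0.0022), UMAMIT8 by 0.52 (adjusted p = 0.0048), UMAMIT40 by 0.75 (adjusted p = 0.013) and UMAMIT33 by 0.83 (adjusted p = 0.015) on the log2 scale. The median log2 fold change of the members was -0.27 as deposited and 0.10 after scaling, against -0.38 and -0.01 over all genes. The overexpression and knockout libraries did not overlap for 21 of the 35 members on the deposited scale, against 56.7% of all genes.

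The 6 members that were higher in overexpression were called on both scales. UMAMIT26 stood at 3.07, 3.60 and 5.02 TPM in overexpression siliques, against 0.191, 0.434 and 0 TPM in knockout siliques, a log2 difference of 2.02 (SE 0.22, adjusted p = 8.8e-06). UMAMIT10 stood at 5.12, 5.85 and 3.20 TPM in overexpression siliques, against 1.54, 2.13 and 0.748 TPM in knockout siliques, a log2 difference of 1.22 (SE 0.24, adjusted p = 9.0e-04). In both genes the overexpression libraries lay above all knockout libraries. SIAR1 differed by 0.88 (SE 0.17, adjusted p = 9.5e-04), UMAMIT17 by 0.90 (SE 0.15, adjusted p = 2.7e-04), UMAMIT22 by 0.96 (SE 0.22, adjusted p = 0.0028) and UMAMIT31 by 0.49 (SE 0.15, adjusted p = 0.017). The call of UMAMIT31 was lost without overexpression replicate 3 or without knockout replicate 3. Of these 6, UMAMIT22 was not called in either line against wild type on the deposited scale. The other 5 were called lower in the knockout and not called in overexpression against wild type. UMAMIT40 had the same calls against wild type, but was not called here as deposited (0.33, SE 0.21, adjusted p = 0.195). The phloem markers SUC2, APL, AHA3 and SULTR2;1 also rose, all 4 of 4, with sums of 373 to 448 TPM in overexpression libraries and 264 to 319 TPM in knockout libraries. Markers of other tissues moved too on the deposited scale. All 6 xylem markers fell (68.5 to 82.9 TPM in overexpression libraries and 121 to 151 TPM in knockout libraries), as did 4 of 5 tested seed coat markers (74.9 to 78.0 TPM in overexpression libraries and 120.0 to 128 TPM in knockout libraries). Of 6 embryo storage markers 4 rose (349618 to 388795 TPM in overexpression libraries and 242084 to 250931 TPM in knockout libraries). Of 6 silique wall markers SHP1 and ADPG2 rose and IND and FUL fell (493 to 594 TPM in overexpression libraries and 466 to 717 TPM in knockout libraries). Of the 2 tested endosperm markers EPR1 rose and ZOU fell (3745 to 8014 TPM in overexpression libraries and 3016 to 3081 TPM in knockout libraries). After median-ratio scaling the calls of the xylem markers CESA4, CESA7 and NST3, the seed coat markers MUM2 and MUM4, and ZOU were lost. The other calls of these markers, and those of the phloem markers, held. The part of these tissues, and of the larger share of storage transcripts, in the 6 higher and 13 lower members was not tested. Of the 21 other genes of amino acid transport tested, 4 rose and 6 fell on the deposited scale, with AAP4 highest at 1.45 (SE 0.15, adjusted p = 7.1e-06). After median-ratio scaling the 4 rises held, CAT6 alone of the 6 falls held, and CAT1, CAT4 and BAT1 were called higher. Of the 11 SWEET genes 1 rose and 5 fell, with SWEET13 lowest at -1.99 (SE 0.12, adjusted p = 6.2e-08). After scaling the falls of SWEET13 and SWEET17 and the rise of SWEET4 held, and SWEET7 and SWEET12 were called higher.

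Of the 13 members lower in overexpression than in the knockout, UMAMIT12, UMAMIT45, AT3G02690, UMAMIT46, UMAMIT2 and UMAMIT44 were also called after median-ratio scaling. UMAMIT12 stood at 76.7, 80.4 and 95.3 TPM in overexpression siliques, against 159.8, 164 and 174 TPM in knockout siliques, a log2 difference of -0.98 (SE 0.12, adjusted p = 2.0e-05) as deposited and -0.55 (adjusted p = 0.0029) after scaling. UMAMIT45 stood at 8.68, 5.20 and 9.80 TPM in overexpression siliques, against 24.6, 21.5 and 18.1 TPM in knockout siliques, a log2 difference of -1.36 (SE 0.19, adjusted p = 8.4e-05) as deposited and -0.96 (adjusted p = 0.0011) after scaling. UMAMIT12 and UMAMIT45 were thus lower in every overexpression library than in any knockout library, on the deposited values. AT3G02690 stood at 7.77, 6.65 and 8.84 TPM in overexpression siliques, against 17.1, 16.4 and 19.6 TPM in knockout siliques, and its log2 fold change was -1.10 (SE 0.14, adjusted p = 4.4e-05). The values of UMAMIT46, UMAMIT2 and UMAMIT44 were -1.09 (SE 0.18, adjusted p = 3.4e-04), -0.86 (SE 0.15, adjusted p = 3.9e-04) and -0.95 (SE 0.24, adjusted p = 0.0051). UMAMIT44 was not called after quantile normalization, and the other 5 were called in every alternative in which they could be tested.

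The remaining 7 were called on the deposited scale and not after median-ratio scaling. They were UMAMIT3 with -0.77 as deposited and -0.54 after scaling, UMAMIT14 with -0.74 and -0.41, AT2G05755 with -0.71 and -0.37, and AT1G06890 with -0.54 and -0.13. UMAMIT29 had -0.43 as deposited and -0.0036 after scaling, UMAMIT23 had -0.42 and -0.03, and UMAMIT41 had -0.42 and 0.01. The fall of UMAMIT41 was thus gone after scaling (adjusted p = 0.968).

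Across the 3 comparisons 13 of the 35 tested members were called in none on the deposited values, as were 46.1% of all genes tested. Of the 13, UMAMIT25, UMAMIT8 and UMAMIT20 were called after median-ratio scaling, as given above. That left 10 of the 35 members called on neither scale, against 40.1% of all genes tested on both scales. The 13 members' deposited log2 fold changes ran from -0.69 to 0.51 in the knockout against wild type and from -0.50 to 0.25 in overexpression against wild type, and their means from 1.47 to 49.7 TPM. They include UMAMIT24 and UMAMIT28, named here after their values were seen because their roles in the seed are known. UMAMIT24 averaged 8.78 ± 0.542 TPM in overexpression siliques, 8.97 ± 3.03 TPM in knockout siliques and 8.75 ± 2.15 TPM in wild type siliques (SD, n = 3 each). UMAMIT28 averaged 5.10 ± 1.45 TPM in overexpression siliques, 6.32 ± 1.56 TPM in knockout siliques and 6.62 ± 1.51 TPM in wild type siliques (SD, n = 3 each). The knockout values of both overlapped wild type. A test that is not passed does not show that levels were equal.

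The members with known roles in moving amino acids in siliques and seeds can be read together. In the knockout against wild type, SIAR1 and UMAMIT11 fell, while UMAMIT14 had a log2 difference of -0.06 (SE 0.19, adjusted p = 0.881), UMAMIT29 of 0.22 (SE 0.13, adjusted p = 0.317), UMAMIT25 of -0.01 (SE 0.11, adjusted p = 0.979), UMAMIT24 of 0.01 (SE 0.22, adjusted p = 0.975) and UMAMIT28 of -0.06 (SE 0.23, adjusted p = 0.892). So 2 of these 7 passed the test in that comparison, in which 15.5% of all genes were called and 6.31% were called lower, and the call of UMAMIT11 was lost in 5 of 20 alternatives.

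A further 2 genes carry UMAMIT names in RefSeq but other deposited descriptions, and are outside the 50. UMAMIT38 (AT4G15540) averaged 8.64 ± 1.49 TPM in overexpression siliques, 9.34 ± 3.05 TPM in knockout siliques and 14.9 ± 0.647 TPM in wild type siliques (SD, n = 3 each). It was called lower in the knockout with a log2 difference of -0.66 (SE 0.19, adjusted p = 0.030), a call that held in 13 of 20 alternatives. In overexpression against wild type it was also called lower, at -0.74 (SE 0.19, adjusted p = 0.014) as deposited, but not after median-ratio scaling (-0.44, adjusted p = 0.157). WAT1 (AT1G75500), known as a vacuolar auxin transporter needed for secondary walls, averaged 16.9 ± 0.760 TPM in overexpression siliques, 29.7 ± 2.10 TPM in knockout siliques and 31.8 ± 2.13 TPM in wild type siliques (SD, n = 3 each). Its log2 fold change in overexpression against wild type was -0.87 (SE 0.12, adjusted p = 4.2e-04) as deposited and -0.56 (adjusted p = 0.011) after median-ratio scaling.

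The members lie on all 5 chromosomes, 14 of them on chromosome 1 and 12 on chromosome 3. In 6 tandem groups, 19 members have another member within 10000 bases. The largest group spans 6 members at chr3:10442608-10468958, of which UMAMIT41, UMAMIT46, UMAMIT45 and UMAMIT44 were tested. All 4 fell in overexpression against wild type on the deposited scale and none after median-ratio scaling, where 23.4% of all genes were called lower on the deposited scale and 3.58% after scaling. None of the 4 was called in the knockout against wild type. UMAMIT45 and UMAMIT46 share 1.34% and 1.62% of their 50-base stretches with each other.

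In other tandem groups some neighbours passed the test in the knockout and others did not. UMAMIT17 fell, while UMAMIT20 beside it on chromosome 4 was near the threshold as given above. UMAMIT31 fell, while UMAMIT29 upstream had a log2 difference of 0.22 (SE 0.13, adjusted p = 0.317) and UMAMIT30 downstream of -0.35 (SE 0.19, adjusted p = 0.247). UMAMIT40 fell, while UMAMIT37 and UMAMIT42 in the same group had log2 fold changes of 0.38 (SE 0.28, adjusted p = 0.424) and -0.69 (SE 0.30, adjusted p = 0.143). The differences between neighbours were not tested. Gene models had 3 to 10 exons, with 7 exons in 23 members.

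**Figure D4:**
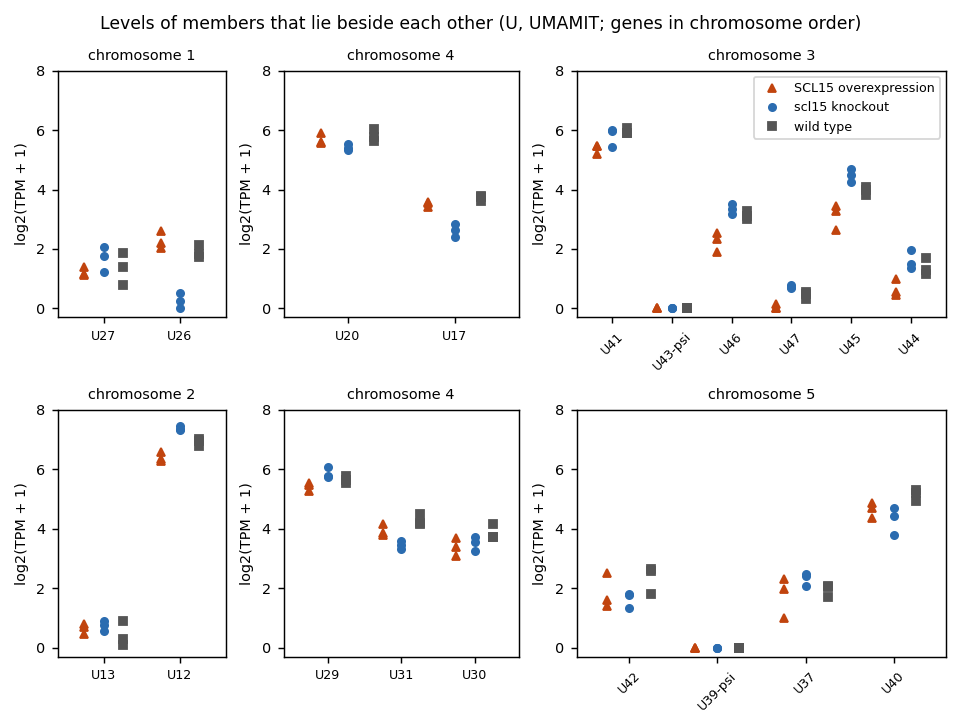
Log2(TPM + 1) of the 19 members that lie within 10000 bases of another member, with 1 panel per tandem group and genes in chromosome order (U stands for UMAMIT). Symbols are single libraries, from left to right for overexpression, knockout and wild type. At UMAMIT26, UMAMIT17, UMAMIT20, UMAMIT31 and UMAMIT40 the knockout circles lie below all wild type squares, at UMAMIT27 they overlap them, and UMAMIT43-psi and UMAMIT39-psi are at 0 in every library.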

How the data were processed

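RNA of siliques was sequenced from stranded mRNA libraries, per the labels' protocols. The deposited values are TPM per gene, each library in a column of its own, per the file headers; every library summed to 1000000 TPM. Genome build TAIR10 is named per the submitters' processing notes, while aligner, counter, strand setting and annotation version are not stated in any source used here. Depth is unknown.

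Groups came from the genotype labels. The members and the gene lists were chosen with earlier results of these data known. The test was that of limma 3.58.1 (R 4.3.3) on log2(TPM + 1), fitted once to all 9 libraries with a trended prior variance and 6 residual degrees of freedom. Genes averaging at least 1 TPM entered it, and a gene was called at a Benjamini-Hochberg adjusted p of 0.05 over all of them. The step was tested on simulated data. Alternatives were median-ratio scaling, quantile normalization, rescaling without storage, oil body and LEA genes, pseudocounts of 0.1 and 5 TPM, other filters, no trend, 2 groups alone, a replicate block, and leaving out libraries. Genes named are SCL15, members called in any comparison, the 8 highest members, and up to 4 called genes of each other transporter list; neighbours in tandem groups, UMAMIT24 and UMAMIT28 were named after their values were seen. Same-numbered overexpression and wild type libraries deviated together from their group means (correlations of 0.13, 0.18 and 0.15). The number was therefore taken to pair them, from the data and not the labels. For the knockout and wild type the correlations were -0.06, 0.35 and 0.27, and for overexpression and the knockout 0.07, 0.16 and 0.13. Each of these sets held a value under 0.1 and was not taken as pairs, although the values reached 0.35 and 0.16. Gene models, names and promoters came from RefSeq TAIR10.1, where all 50 members were found. Python 3.11.15, pandas 2.3.3 and matplotlib 3.10.9 made the tables and plots.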

Additional observations from a re-analysis of the deposited data

How the results depend on the processing

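The count of members called in overexpression against wild type was 11 on the deposited values, all lower, and 3 after median-ratio scaling, 3 after quantile normalization and 3 after rescaling without storage, oil body and LEA genes. Those 3 were all higher in each setting and none was among the 11. Over all genes 4149 were called on the deposited values and 1133 after median-ratio scaling. The storage share was larger in overexpression siliques, and the cause of the change in calls was not tested. Leaving out 1 library at a time gave 6 to 13 called members in that comparison, 6 to 10 in the knockout against wild type and 15 to 19 in overexpression against the knockout. UMAMIT41 had a log2 difference of 0.0104 after median-ratio scaling in overexpression against the knockout, against -0.42 as deposited. Same-numbered libraries had correlations of deviations from -0.06 to 0.35 in the knockout against wild type and from 0.07 to 0.16 in overexpression against the knockout, and were not taken as pairs there. With the replicate number as a block, 10 members were called in the knockout against wild type, against 20.8% of all genes. In overexpression against wild type 14 members were called, against 31.9% of all genes, and the block changed no call but those given above. In overexpression against the knockout 21 members were called, against 53.5% of all genes. Leaving out knockout replicate 3 and overexpression replicate 3 together gave 10, 13 and 17. Over SCL15 and the 25 members named by rule, in 3 comparisons, 1372 values stayed on their side of the threshold with called ones keeping their direction. Another 119 lost their call and 50 gained one. The value of UMAMIT41 given above lost its call and changed sign, the only 1 to do so. With 3 libraries per group, and no depth, small changes of low members could not be resolved.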
